A study of Mus musculus with 12 samples.

Results

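Fancg, Pms2, Mus81, Mutyh, Rtel1, Terf1 and Ankle1 are 7 genes of DNA repair and telomere maintenance, chosen because each has an event in the authors' deposited splicing tables. Those tables list 262 genes in all, 222 of them in neural progenitor cells (NPC). Each of the 7 genes has 1 event, and all 7 events are in the NPC table: 6 retained introns and, in Terf1, 1 skipped exon. The table for mouse embryonic fibroblasts (MEF) lists no event in any of them.

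The 7 proteins act at different steps of genome maintenance. Fancg belongs to the Fanconi anemia core complex, which starts the repair of DNA crosslinks, Pms2 acts in mismatch repair, and Mutyh is the glycosylase that removes adenine paired with oxidized guanine. Mus81 and Ankle1 are structure-specific endonucleases, Mus81 cutting stalled forks and recombination intermediates with its partners Eme1 or Eme2. Rtel1 is a helicase that unwinds D-loops and telomere loops, and Terf1 (TRF1) is a subunit of the shelterin complex that binds double-stranded telomere repeats. PRMT5, the enzyme whose gene was targeted here, methylates arginines of Sm proteins, which form the core of the spliceosomal snRNPs. A retained intron or a frame-shifting exon skip often brings a premature stop codon, and transcripts with one upstream of an exon junction can be degraded by nonsense-mediated decay.

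RNA came from 12 libraries in 4 groups of 3: NPC with 4-hydroxytamoxifen (4-OHT), NPC with ethanol, MEF with 4-OHT and MEF with ethanol. Cells of every group had the genotype Prmt5 F/F ER, a conditional allele that 4-OHT deletes, on a mixed C57BL/6 X 129S1/SvlmJ background, and were treated for 24 h with 50 nM 4-OHT or with an equal volume of ethanol. NPC were cortical neurospheres of E14.5 embryos at day 4, and MEF were passage 1 fibroblasts of the same stage. No labelled group received 4-OHT while lacking the conditional allele, so effects of 4-OHT and of Prmt5 loss cannot be told apart, and the promoter that drives the recombinase is not given in the sources used here. The labels do not say whether replicates were separate cultures or embryos.

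Prmt5 itself was at 4.92 RPKM with 4-OHT and 33.4 RPKM with ethanol in NPC, in the authors' deposited table. In MEF the authors' deposited table gives 3.76 RPKM with 4-OHT and 20.96 RPKM with ethanol. RPKM is the number of reads scaled to transcript length and to the reads mapped in a library. The splicing tables give, for each event and pair code, reads of 1 library with 4-OHT and 1 with ethanol. The NPC pair codes are 24, 26 and 28, and no code matches a replicate number in the labels. Over the 59 events listed in all 3 NPC pairs, code 24 had the fewest reads, 13574 with 4-OHT and 11554 with ethanol, against 33197 with 4-OHT and 24382 with ethanol for code 26, and 23191 with 4-OHT and 15493 with ethanol for code 28. Code 24 also had the fewest listed events, 157 against 202 and 210. Of the markers fixed for the labelled cells, the NPC expression table lists 1 of 6 progenitor genes, Hes5, and 0 of 6 fibroblast genes. It holds changed genes only, so the cell type could not be checked from it.

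The sequences below show what the spliceosome meets at each of the 6 introns. They were read from GENCODE M21 transcripts (GRCm38) of the same Ensembl gene in which the whole intron is kept as exon. The events were matched to that annotation by the length of the intron and of either or both flanking exons. Each line gives the last 10 exon bases, the first 6 intron bases in capitals (the 5′ splice site, or donor) and 14 further intron bases.
Fancg: tgccgccaagGTCTAGcaatccaaatcatg
Pms2: ggctcatcacGTGGGTgcacacaggcttca
Mus81: caagaacaagGTACCAcccctgcctcacct
Mutyh: catgaaaaagGCACCAcctttgttgtcttt
Rtel1: tcagaaaactGTGAGCtccaaatgcccggt
Ankle1: gaacccacagGTGAGAggaactgagggggt

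The Mutyh intron begins with GC, and the other 5 begin with GT. All 6 end with AG. Of the 74 other introns listed in NPC with a sequence here, none begins with GC, and of 8624 introns of coding transcripts that are kept in another annotated transcript of their gene, 1.21% do. The common donor has A or C, then A, then G at the end of the exon, and G, T, A or G, A, G, T at the start of the intron. The Ankle1 donor matched 8 of these 9 positions, Pms2 matched 7, Mus81 and Rtel1 matched 6, and Fancg and Mutyh matched 5. A score of 6 or less was found for 66.7% of the 6 introns, for 67.6% of the other listed introns and for 35.1% of the annotated retained introns. The low scores were thus as common among the other listed introns as among those of the repair and telomere genes.

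**Figure D1:**
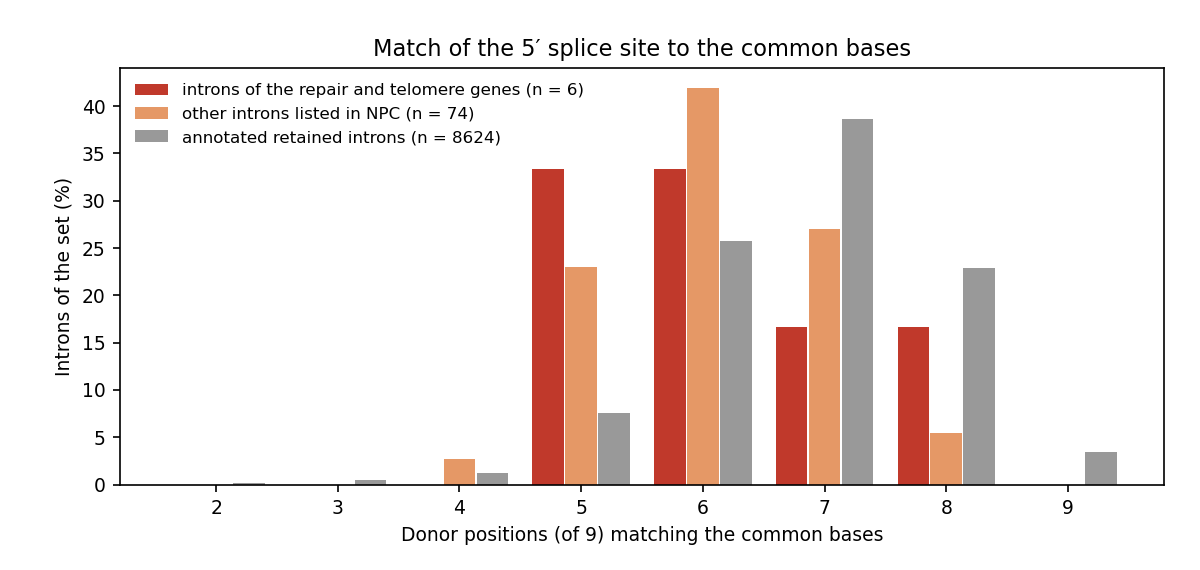
Share of introns in each set (vertical axis, percent) by the number of the 9 donor positions that match the common bases (horizontal axis). The 6 introns of the repair and telomere genes lie between 5 and 8, within the range of the 74 other listed introns, and the annotated retained introns have their highest bar at 7.

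Every one of the 6 introns, read in the frame of a coding transcript matched to it, holds a stop codon before its end. The same holds for 62 of 71 other listed introns between coding exons (87.3%), so a stop is common in such introns. The introns of Mus81, Rtel1, Fancg, Mutyh and Ankle1 are given whole, with the first in-frame stop codon in capitals, and the Pms2 intron, which has 675 bases, by its first 79 bases.
Mus81: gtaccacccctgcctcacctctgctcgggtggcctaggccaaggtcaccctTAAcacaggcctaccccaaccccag
Rtel1: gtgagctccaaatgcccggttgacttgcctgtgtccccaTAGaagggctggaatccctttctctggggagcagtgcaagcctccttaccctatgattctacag
Fancg: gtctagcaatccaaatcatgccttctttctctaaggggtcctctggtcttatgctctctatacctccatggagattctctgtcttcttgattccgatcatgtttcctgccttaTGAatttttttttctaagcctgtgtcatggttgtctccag
Mutyh: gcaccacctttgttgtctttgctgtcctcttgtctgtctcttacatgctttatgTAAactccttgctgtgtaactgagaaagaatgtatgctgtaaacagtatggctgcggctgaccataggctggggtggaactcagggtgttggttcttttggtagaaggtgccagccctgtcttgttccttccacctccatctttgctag
Ankle1: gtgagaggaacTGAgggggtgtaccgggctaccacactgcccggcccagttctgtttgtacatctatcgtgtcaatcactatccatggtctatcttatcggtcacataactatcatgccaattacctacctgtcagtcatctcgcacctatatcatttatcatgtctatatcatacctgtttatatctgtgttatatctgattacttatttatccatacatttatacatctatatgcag
Pms2: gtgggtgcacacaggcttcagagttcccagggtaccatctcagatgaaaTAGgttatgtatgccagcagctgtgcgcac

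The skipped exon of Terf1 has 89 bases, which is no multiple of 3, so skipping shifts the frame. It is shown in capitals with 10 bases of each neighboring exon, followed by the joined exons without it, where the capitals mark the first in-frame stop codon.
Terf1 exon: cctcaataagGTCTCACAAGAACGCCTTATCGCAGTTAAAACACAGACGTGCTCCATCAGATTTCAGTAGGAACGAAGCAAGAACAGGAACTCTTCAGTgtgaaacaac
Terf1 joined: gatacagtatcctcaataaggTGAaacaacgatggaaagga

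**Figure D2:**
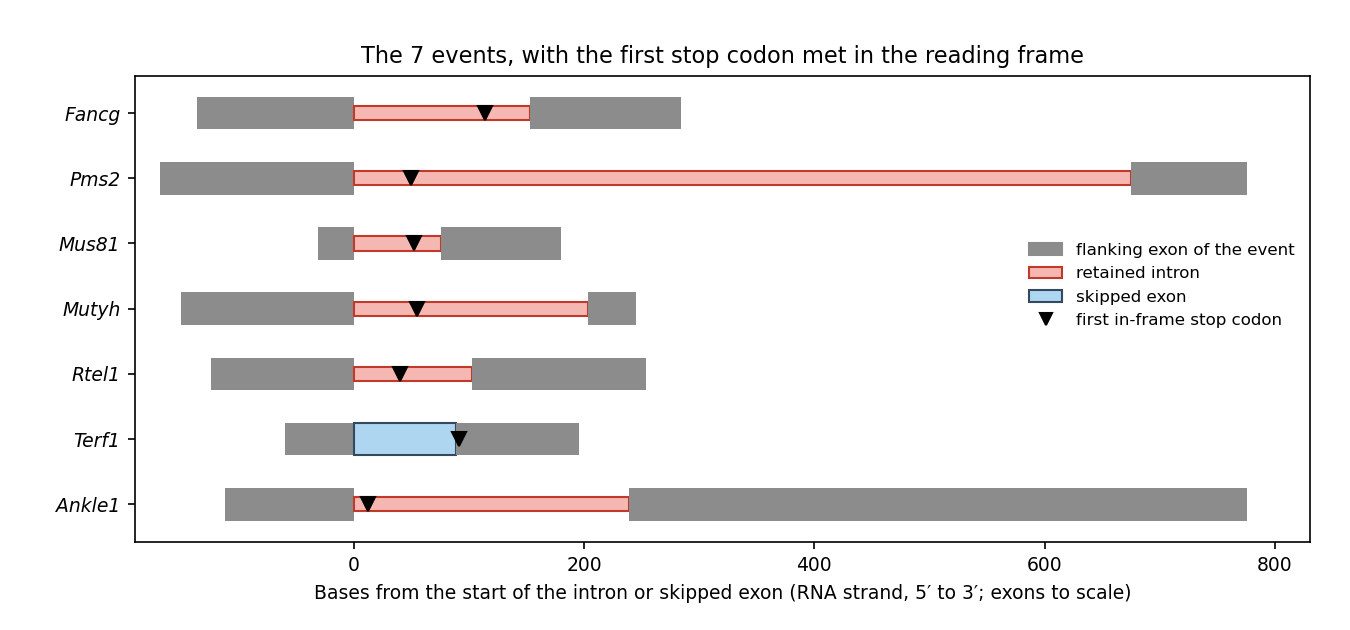
The 7 events drawn to scale on the RNA strand, in bases from the start of the retained intron or skipped exon (horizontal axis), with the flanking exons of each event in gray. Triangles mark the first in-frame stop codon, which lies inside each of the 6 introns and, in Terf1, just after the join of the exons on either side of the skipped one. The Mus81 stop was scanned in transcript Mus81-202, and not in a form with the 31-base upstream exon drawn here.

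Fancg had the largest difference of the 7 events. Its intron has 153 bases, at 43019987 to 43020139 of chromosome 4 in mm9 (minus strand). It lies between exons 5 and 6 of 14 of transcript Fancg-201. The inclusion level, the fraction of transcripts with the intron after correction for the length of each form, was 1, 0.749 and 0.68 with 4-OHT, against 0.072, 0.081 and 0.13 with ethanol. All 3 libraries with 4-OHT lay far above those with ethanol. Reads of the retained form numbered 13, 29 and 31 with 4-OHT and 3, 9 and 8 with ethanol. Reads of the spliced form numbered 0, 2 and 3 with 4-OHT and 8, 21 and 11 with ethanol, so the forms changed places in each pair. The mean level was 0.810 ± 0.168 with 4-OHT and 0.0943 ± 0.0312 with ethanol (SD, n = 3 each), a difference of 0.715. The values of code 24 rest on 13 reads with 4-OHT and 11 with ethanol, and the 95% interval of its level with 4-OHT runs from 0.410 to 1. That interval, a Wilson interval of the read share carried to the level, covers counting error only. A transcript with the intron would be read for 258 of 623 codons before a stop 1139 bases upstream of the last exon junction.

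Pms2 was the other gene listed in all 3 pairs. Its intron of 675 bases, at 144689136 to 144689810 of chromosome 5 in mm9 (plus strand), lies between exons 12 and 13 of 15. The level was 0.424, 0.342 and 0.45 with 4-OHT and 0.105, 0.104 and 0.071 with ethanol, in the order of codes 24, 26 and 28. The arms did not overlap, and the spread within each was narrow. The means were 0.405 ± 0.0564 with 4-OHT and 0.0933 ± 0.0193 with ethanol (SD, n = 3 each), a difference of 0.312. Spliced reads numbered 4, 14 and 6 with 4-OHT and 15, 28 and 21 with ethanol. Retained reads numbered 57, 141 and 95 with 4-OHT and 34, 63 and 31 with ethanol. The stop codon falls after 738 of 859 codons, with 2 exon junctions downstream of the intron. An exon of the annotated gene Gm42421 lies over part of this intron on the same strand, and reads of both genes cannot be told apart there. No other annotated gene overlaps the introns or exon of the other 6 genes.

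The endonuclease and helicase genes Mus81 and Rtel1 were listed in pairs 26 and 28 only. The Mus81 intron, 76 bases at 5483559 to 5483634 of chromosome 19 in mm9 (minus strand), is the shortest of the 15 introns of transcript Mus81-202. The event table gives its upstream exon as 31 bases, a shorter annotated form of exon 13. Its level was 0.456 and 0.486 with 4-OHT and 0.183 and 0.154 with ethanol. The libraries of each arm lay close together. The mean was 0.471 ± 0.0212 with 4-OHT and 0.169 ± 0.0205 with ethanol (SD, n = 2 each), a difference of 0.302. Retained reads numbered 48 and 44 with 4-OHT and 33 and 15 with ethanol, and spliced reads 16 and 13 with 4-OHT and 41 and 23 with ethanol. In Mus81-202 the stop codon lies after 484 of 551 codons. The frame of a form with the 31-base exon was not scanned.

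The Rtel1 intron has 103 bases at 181086405 to 181086507 of chromosome 2 in mm9 (plus strand), between exons 25 and 26 of 34. It was at 0.579 and 0.519 with 4-OHT, against 0.089 and 0.117 with ethanol. Spliced reads numbered 13 and 12 with 4-OHT and 80 and 50 with ethanol. Retained reads numbered 62 and 45 with 4-OHT and 27 and 23 with ethanol. The mean levels were 0.549 ± 0.0424 with 4-OHT and 0.103 ± 0.0198 with ethanol (SD, n = 2 each), a difference of 0.446. The stop codon follows 768 of 1209 codons, and 8 exon junctions lie downstream of the intron.

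Mutyh and Ankle1 differ from the other introns in their level with ethanol, with means above 0.3 where the other 4 were below 0.2. The Mutyh intron with the GC donor has 203 bases at 116490643 to 116490845 of chromosome 4 in mm9 (plus strand). It lies between exons 14 and 15 of 16. Its level in pairs 26 and 28 was 0.816 and 0.853 with 4-OHT and 0.396 and 0.287 with ethanol. Only 3 and 1 spliced reads were left with 4-OHT, against 15 and 7 with ethanol, while retained reads numbered 85 and 37 with 4-OHT and 63 and 18 with ethanol. The means were 0.835 ± 0.0262 with 4-OHT and 0.342 ± 0.0771 with ethanol (SD, n = 2 each), a difference of 0.493. As plain read shares, without the length correction, the difference was 0.206. The stop codon lies late, after 478 of 515 codons, and 188 bases upstream of the last junction.

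The Ankle1 intron, 239 bases at 73930873 to 73931111 of chromosome 8 in mm9 (plus strand), lies between exons 4 and 5 of 9. In pairs 24 and 26 its level was 1 and 0.637 with 4-OHT, against 0.563 and 0.321 with ethanol. The lowest library with 4-OHT was above the highest with ethanol, but each arm was widely spread. The means were 0.819 ± 0.257 with 4-OHT and 0.442 ± 0.171 with ethanol (SD, n = 2 each), and the pairs differed by 0.437 and 0.316. Without the length correction, as plain read shares, the mean difference was 0.125, against 0.376 with it. Here reads of both forms were fewer with 4-OHT: retained reads numbered 44 and 51 with 4-OHT and 84 and 127 with ethanol, and spliced reads 0 and 4 with 4-OHT and 9 and 37 with ethanol. The stop codon is the earliest of the 6, after 148 of 534 codons and at base 12 of the intron.

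Terf1 is the one member with a skipped exon. The exon, at 15823482 to 15823570 of chromosome 1 in mm9 (plus strand), is exon 8 of 10 of transcript Terf1-203. Its level in pairs 24 and 28 was 0.625 and 0.509 with 4-OHT, against 0.847 and 0.882 with ethanol. Both libraries with 4-OHT were below both with ethanol. Reads without the exon numbered 15 and 31 with 4-OHT and 8 and 7 with ethanol, and reads with it 77 and 99 with 4-OHT and 137 and 161 with ethanol. The means were 0.567 ± 0.0820 with 4-OHT and 0.865 ± 0.0247 with ethanol (SD, n = 2 each), a difference of -0.297. Plain read shares with no length correction differed by -0.152. Without the exon, the frame ends after 303 of 421 codons. The pair of code 24, with a level lower by 0.222 and a deposited p-value of 0.0406 from the splicing tool, is the closest of the 16 listed pairs to the limits of the table, whose smallest difference in size is 0.201. Pairs outside those limits are not in the tables used here.

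**Figure D3:**
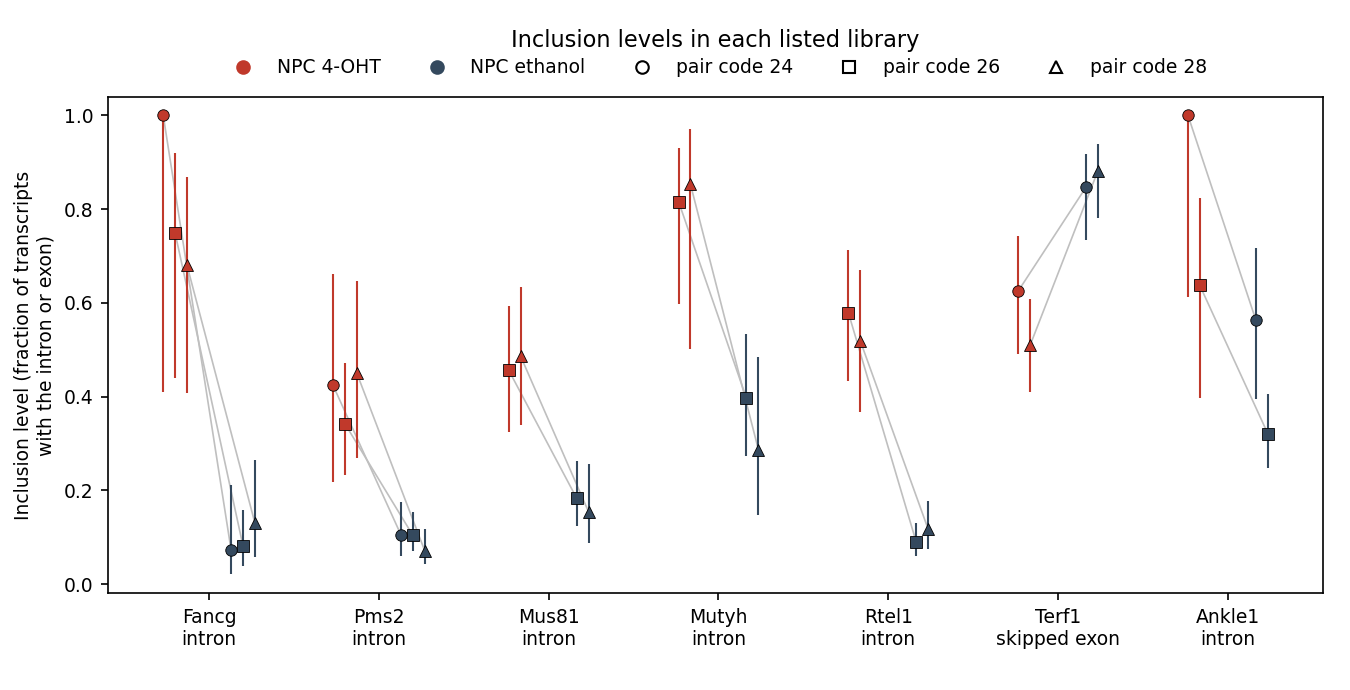
Inclusion level (vertical axis, fraction of transcripts with the intron or exon) of the 7 events in each listed NPC library, 4-OHT in red and ethanol in dark blue. Symbols give the pair code, gray lines join a pair, and bars are 95% Wilson intervals of the read share carried to the level; each intron is higher and the Terf1 exon lower with 4-OHT in each listed pair.

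These directions are those of most listed events, and the events were chosen from this contrast, so no test was made of them. Of 82 introns listed in NPC, 96.3% had a higher level with 4-OHT, and the arms of 100.0% did not overlap. Of 135 skipped exons listed in NPC, 62.2% had a lower level with 4-OHT, and again the arms of 100.0% did not overlap. Listing asks for a difference in at least 2 pairs, which favors such a gap. The median difference was 0.411 over the 6 introns and 0.325 over all 82. Fancg ranked 6th, Mutyh 16th, Rtel1 20th, Ankle1 30th, Pms2 47th and Mus81 51st from the highest difference. The Terf1 exon ranked 56th from the lowest difference of 135. All 3 pairs were listed for 2 of the 7 events, against 32.9% of introns and 20.0% of skipped exons. Of the NPC introns 12.2% are also in the MEF table with the same coordinates, and 5.19% of the NPC skipped exons. None of the 7 events is among them, and their levels in MEF are unknown.

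Some listed events of other genes had nearly the same pair of mean levels. The closest match, by distance between the means of both arms, was the Pddc1 intron to that of Pms2, at 0.405 with 4-OHT and 0.0863 with ethanol over 3 pairs. The Tcof1 exon was closest to the Terf1 exon, at 0.554 with 4-OHT and 0.866 with ethanol over 2 pairs. The Neu1 intron was closest to the Mus81 intron, at 0.491 with 4-OHT and 0.175 with ethanol over 3 pairs.

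**Figure D4:**
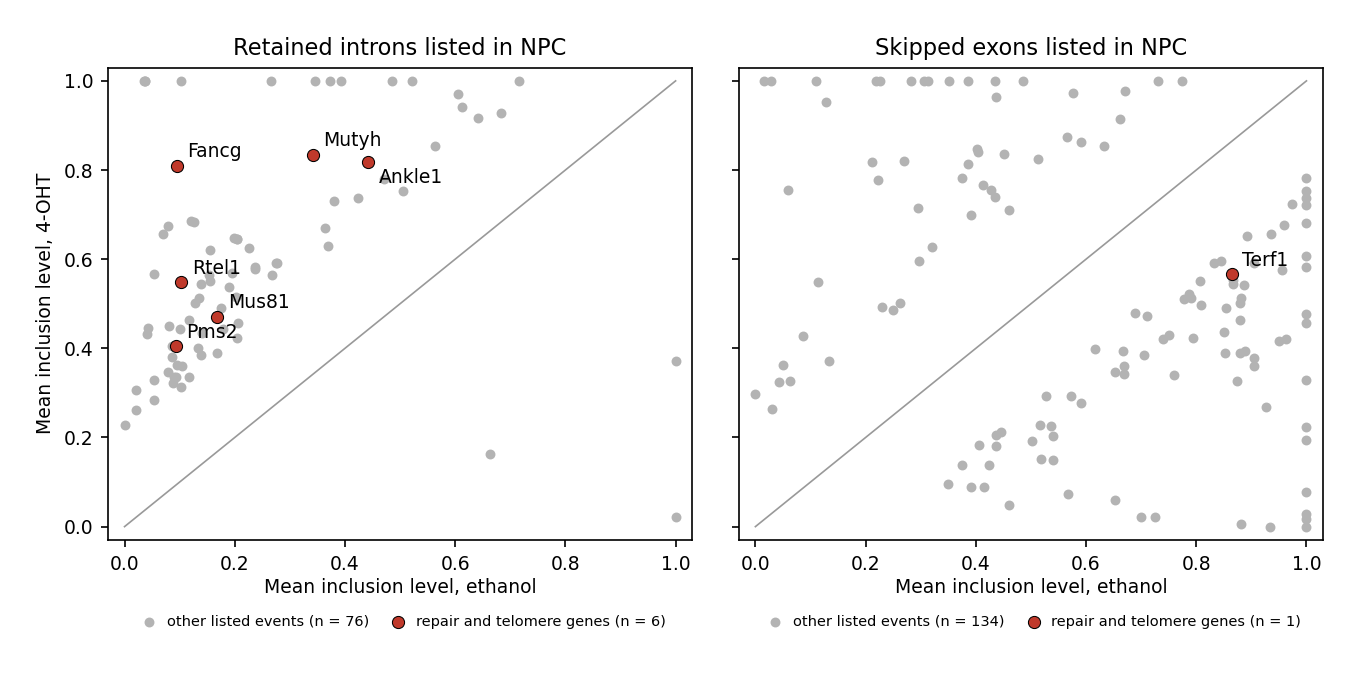
Mean inclusion level with 4-OHT (vertical axis) against that with ethanol (horizontal axis) for introns (left) and skipped exons (right) listed in NPC; the line marks equal levels. The 6 introns of the repair and telomere genes, in red, lie above the line among most other introns in gray, and the Terf1 exon lies below it.

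The introns were short next to most introns of coding transcripts. The median length was 178 bases for the 6, 225 bases for the other 76 listed introns, 278.5 bases for the annotated retained introns and 1446 bases for all 223267 introns of coding transcripts. Within its own transcript the Pms2 intron was the 3rd shortest of 14, that of Fancg the 5th of 13 and that of Rtel1 the 6th of 33. The Mutyh and Ankle1 introns were not short for their genes, the 11th of 15 and the 6th of 8. The share of G and C ranged from 40.2% in Ankle1 to 64.5% in Mus81, with a median of 46.2% against 52.3% over the other listed introns. The 20 bases ahead of the last 3 held a median of 67.5% C or T in the 6 introns and 75% in the others.

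Of the 7 genes, 4 were in the NPC expression table, all lower with 4-OHT. Ankle1 was at 3.06 RPKM with 4-OHT and 9.40 RPKM with ethanol in the authors' deposited table, a log2 fold change of -1.62 and the 27th lowest of 2416 listed genes. Mutyh was at 2.40 RPKM with 4-OHT and 3.90 RPKM with ethanol (log2 fold change -0.70, Cuffdiff p = 0.00329, unadjusted), and Rtel1 at 8.89 RPKM with 4-OHT and 13.9 RPKM with ethanol (log2 fold change -0.65, Cuffdiff p = 7.15e-05), as the authors' deposited table gives them. Terf1 was at 6.60 RPKM with 4-OHT and 10.1 RPKM with ethanol in the authors' deposited table (log2 fold change -0.61, Cuffdiff p = 0.000442). The table gives 1 value for each arm, so no spread between replicates can be set beside these changes, and its values do not separate retained from spliced transcripts. In such bulk RNA fewer cells of a type and less RNA per cell cannot be told apart. Fancg, Pms2 and Mus81 are not listed, so their change is unknown. The listed genes are limited by size as well as by p-value: the smallest log2 fold change in the NPC table is 0.58 in size, which places Terf1 and Rtel1 just inside it. Of the 222 NPC genes with a listed event, 9.91% are in the expression table as lower, and 43.4% of all 2416 genes there are lower.

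Many other genes of the same pathways were listed as lower too. Of 113 genes in 5 lists of crosslink repair, mismatch repair, base excision repair, recombination and telomeres, 54 were in the NPC expression table, 53 of them lower. Without the 7 genes, 50 of 106 were listed, 49 of them lower. The median log2 fold change of those 49 was -0.81, close to the median of -0.77 over all 1049 lower genes of that table. Of 23 Fanconi and crosslink genes 11 were lower, such as the ubiquitin ligase subunit Fancl at 3.34 RPKM with 4-OHT and 7.15 with ethanol and its target Fanci at 6.82 RPKM with 4-OHT and 13.5 with ethanol, in the authors' deposited table. Of 18 mismatch repair genes 12 were lower, led by the DNA polymerase delta subunit Pold1 at 11.7 RPKM with 4-OHT and 25.7 with ethanol in the authors' deposited table, and by the clamp loader subunit Rfc4 (log2 fold change -0.96). Of 21 base excision genes 9 were lower, with the endonuclease Apex1 at 45.2 RPKM with 4-OHT and 95.1 with ethanol and the glycosylase Neil3 at 2.92 RPKM with 4-OHT and 5.85 with ethanol, in the authors' deposited table.

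Of 29 recombination genes 15 were lower, Ankle1 first and the helicase Recql next, at 5.46 RPKM with 4-OHT and 13.8 with ethanol in the authors' deposited table. Of 22 telomere genes 6 were lower, among them the shelterin gene Tinf2, at 10.2 RPKM with 4-OHT and 21.5 with ethanol, and Dkc1, of the telomerase ribonucleoprotein, at 20.4 RPKM with 4-OHT and 38.1 with ethanol, in the authors' deposited table. The single higher gene was Tert, the telomerase reverse transcriptase, at 0.370 RPKM with 4-OHT and 0.234 with ethanol in the authors' deposited table (Cuffdiff p = 0.0412). Tert is named after its values were seen. In MEF the lists had 1 listed gene, Pold1, at 3.34 RPKM with 4-OHT and 5.79 with ethanol in the authors' deposited table, where 49.5% of all 111 genes are lower. Markers of other cells moved in the same NPC table: 3 of 4 glial markers were higher, at a summed 13.9 RPKM with 4-OHT and 3.57 with ethanol, and so was 1 of 4 neuron markers, Tubb3, at 9.59 RPKM with 4-OHT and 4.81 with ethanol, in the authors' deposited table. Hes5, the listed progenitor marker, was at 4.77 RPKM with 4-OHT and 15.8 with ethanol in the authors' deposited table, and 0 of 3 blood and vessel markers were listed. Their part in the lower repair genes was not tested.

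**Figure D5:**
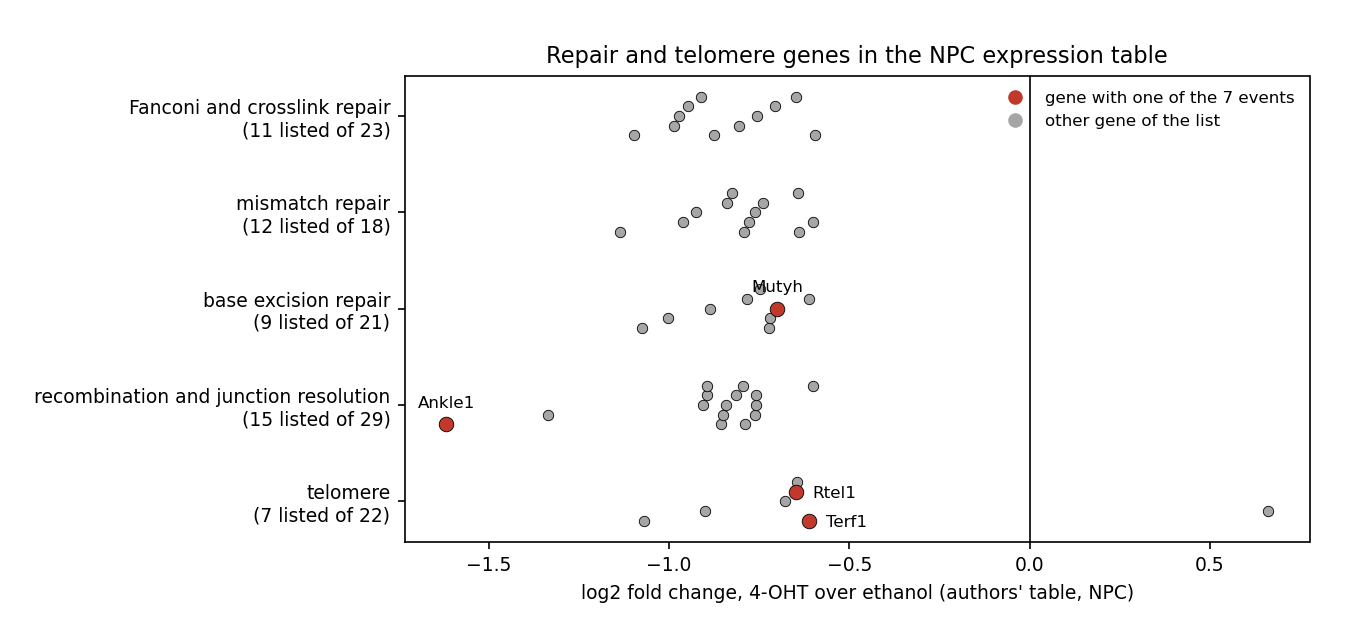
Log2 fold change of 4-OHT over ethanol (horizontal axis) for the genes of 5 repair and telomere lists that are in the authors' NPC expression table, 1 point a gene, with the genes that have one of the 7 events in red. Listed genes lie below 0 except Tert, and Ankle1 at -1.62 is the lowest.

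Among the 106 other genes of the lists 1 had a listed splicing event, also a retained intron in NPC. It was in Slx1b, which encodes the catalytic subunit of the Slx1-Slx4 nuclease, at 133835338 to 133835441 of chromosome 7 in mm9 (minus strand). Its level was 1 and 0.347 with 4-OHT, against 0.072 and 0.087 with ethanol, in pairs 24 and 26. Code 24 rests on 7 reads with 4-OHT and 14 with ethanol. The donor matches 8 of the 9 common positions, and the first in-frame stop begins at base 2 of the intron, after 233 of 270 codons.
Slx1b: attgtcctagGTGAGTcctagtcctcttcc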

How the data were processed

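The submitters' processing notes name TopHat2 2.03, Bowtie2 2.0.0.6, Cuffdiff 2.02 and the genome build mm9. The 2 expression tables hold, per the file headers, 1 RPKM value for each arm, the log2 fold change and an unadjusted p-value, all deposited by the authors. Every listed gene has p under 0.05 and a log2 fold change of at least 0.58 in size in NPC and 0.65 in MEF. The 2 splicing tables, named for MATS, hold the deposited counts of reads of each form, the inclusion level as a fraction, its difference as a score (ethanol minus 4-OHT, turned round here) and a p-value for each pair code. The depth of whole libraries is unknown. Reads of an event in a library numbered 11 to 168 for the 7 genes, and reads copied by PCR are not independent molecules, so intervals cover counting error only.

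Levels were averaged over listed pairs with SD (pandas 2.3.3). Wilson 95% intervals (scipy 1.17.1) were carried to the level with the ratio of effective lengths implied by the deposited levels. Listing requires a difference over 0.2 in at least 2 pairs, so unlisted pairs are unknown and means are biased away from 0. No test was run, because the genes were chosen from this contrast. The members and lists were chosen with earlier results of these data known. Named genes were the 7, genes of the 5 lists with an event, the 2 largest changes a list and direction at 1 RPKM or more, Prmt5, and the 3 nearest events. Introns were matched to GENCODE M21 (GRCm38) by length within the Ensembl gene, for 80 of 82 NPC introns, and no coordinates were converted. The stop codon scan and the level formula were tested on simulated data.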

Additional observations from a re-analysis of the deposited data

How the results depend on the processing

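Levels without the length correction, as plain read shares, gave smaller differences for Ankle1 (0.125), Mutyh (0.206) and Terf1 (-0.152). Rtel1 had a larger difference (0.524). Fancg (0.618), Pms2 (0.267) and Mus81 (0.341) shifted by less than the SD of their pair differences. All 7 differences kept their direction. Pooling reads over pairs moved none of the 7 differences by more than the SD of its pair differences. With only 2 pairs, as for 5 of the events, that SD exceeds the distance of either pair from their mean. A pooled value between the 2 pairs could therefore not count as moved. Requiring at least 20 reads in each arm left only the pair of code 26 for Fancg, with a difference of 0.668. It dropped no pair of the other events, so it could not change their values. With the replicate block, the mean of the differences within pair codes, each value was the same as the difference of arm means (0.715 for Fancg), because each listed pair holds both arms. Leaving out 1 pair at a time, the difference ranged from 0.609 to 0.798 for Fancg, 0.278 to 0.349 for Pms2, 0.273 to 0.332 for Mus81, 0.402 to 0.490 for Rtel1, 0.420 to 0.566 for Mutyh, 0.316 to 0.437 for Ankle1 and -0.373 to -0.222 for Terf1. For the 5 events listed in 2 pairs, the ends of the range are only the differences of the single pairs. Every listed pair of the 7 events differed by over 0.2 in size, in the direction of its mean. Leaving out a pair could therefore neither reverse a difference nor bring it below that limit. A pseudocount of 1 RPKM gave log2 fold changes of -0.53 for Mutyh and -1.36 for Ankle1. With at least 1 RPKM required in either arm, and with a deposited p under 0.01, 0 genes of the lists were higher in NPC, and with that p 0 were lower in MEF. Levels rebuilt from stated effective lengths were not run, since the tables state none. The depth of each event, 11 to 168 reads in a library, limits the levels, and a level of 1 rests on 0 spliced reads.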
